A study of Mus musculus with 66 samples.

Results

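The comparison of P6 large with P4 large oocytes follows growing mouse oocytes over 2 days of early follicle growth. It rests on 6 of the 66 libraries of the series, 3 of P6 large and 3 of P4 large oocytes, and on all 12368 of 24062 listed genes whose mean reached 1 RPM (reads of a gene per 1000000 reads of its library) in at least 1 of these groups. P6 and P4 are the usual notation for postnatal days. Both groups were freshly isolated from ovaries of C57BL/6 x B6D2F1 mice that carry the stella-ECFP(SC) reporter transgene, and no treatment was applied to either. The P6 small and P4 small oocytes used below come from ovaries of the same reporter mice, with 3 libraries each. The D20 and D13 libraries, 3 each, hold oocytes made in culture from embryonic stem cells, which were turned into germ cell precursors and grown with fetal gonadal somatic cells in a reconstituted ovary. How large and small oocytes were told apart is not given in the sources used here. Nor is the number of oocytes and animals in a library. The p-values therefore measure only the spread between libraries of a group, which may be technical. For the ovary comparisons limma estimated that spread from all 27 in vivo libraries, not from the compared groups alone.

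A newborn mouse ovary holds many dormant primordial oocytes and a smaller number that have begun to grow. A growing oocyte enlarges over days while it stays arrested in meiotic prophase, secretes a glycoprotein coat, signals to the surrounding granulosa cells through the growth factors GDF9 and BMP15, and stores mRNA and protein for the embryo. The transcription factors FIGLA, NOBOX, LHX8, SOHLH1 and SOHLH2 are needed for the formation and first growth of follicles, and FOXO3 in the nucleus keeps primordial oocytes dormant.

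The libraries held 16657836 to 21358449 reads, with 12.0% to 14.3% of reads in the 10 most abundant genes. One P4 large library lay nearer to P6 large than the others of its group. On log2(RPM + 1) over the genes tested, P4 large replicate 2 had Pearson correlations of 0.986 to 0.989 with the P6 large libraries. P4 large replicates 1 and 3 had 0.974 to 0.979. Within its group replicate 2 had 0.992 with both replicate 1 and replicate 3, which had 0.994 with each other. Over called genes only, P4 large replicate 2 was the P4 library nearest to P6 large in 84.0% of those lower and 76.1% of those higher. The tests of each gene, the counts of the gene lists and the comparison of X-linked with autosomal genes were therefore also computed without it, and its part in the other results was not tested. A gene is called when its limma adjusted p is under 0.05, the limma test being two-sided on log2(RPM + 1) with Benjamini-Hochberg adjustment over all genes tested.

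Markers of the labelled cell type were present. All 14 oocyte markers were measured and summed to 32887 to 35198 RPM in P6 large and 29868 to 32756 RPM in P4 large libraries. Of 22 granulosa cell markers 7 passed the filter on level, and the list summed to 119 to 125 RPM in P6 large against 79.6 to 95.3 RPM in P4 large libraries. Gata4, described below, and Fshr were called higher. Fshr, the receptor of follicle-stimulating hormone, was at 0.995, 0.927 and 1.26 RPM in P6 large, against 0.575, 0.420 and 0.518 RPM in P4 large libraries, a log2 change of 0.45 (limma adjusted p = 0.0037) that edgeR did not call (adjusted p = 0.21). Nr5a2, at 57.6 to 65.1 RPM in P6 large and 38.6 to 47.7 RPM in P4 large libraries, and the aromatase Cyp19a1, at 1.45 to 2.21 RPM and 0.691 to 1.20 RPM, did not overlap between the groups and were not called. Ptgis was at 26.9 to 30.6 RPM in P6 large and 23.1 to 27.2 RPM in P4 large libraries. Krt8 was at 5.25 to 14.35 and 2.30 to 6.54 RPM, and Kitl at 2.36 to 3.14 and 2.36 to 4.08 RPM. These overlapped between the groups and were not called. The remaining members were under 1 RPM in all 6 libraries. Among them, Foxl2 was at 0.105 to 0.463 RPM and Amh at 0.367 to 0.609 RPM in P6 large libraries. In P4 large libraries Foxl2 was at 0.115 to 0.120 RPM and Amh at 0.180 to 0.806 RPM. Krt19 was at 0 in all 6. The part of granulosa cell RNA in the results was not tested. Markers of stroma and theca summed to 2.68 to 3.51 RPM in P6 large against 2.59 to 5.04 RPM in P4 large libraries, those of blood and immune cells to 2.73 to 4.45 against 3.11 to 4.80 RPM, and those of endothelium to 29.5 to 37.7 against 18.1 to 24.8 RPM. Most of the endothelial sum came from Pecam1 and Tek. Pecam1, an adhesion protein, was at 23.2, 16.1 and 20.1 RPM in P6 large, against 5.47, 11.8 and 8.93 RPM in P4 large libraries, a log2 change of 1.14 (limma adjusted p = 0.0089) whose call was lost without P4 large replicate 1 (0.87, adjusted p = 0.0815). Tek was at 9.4 to 10.1 RPM in P6 large and 7.6 to 8.5 RPM in P4 large libraries, and Tie1 at 1.9 to 2.3 and 1.7 to 3.2 RPM. Egfl7, Flt1 and Vwf were also read in all 6 libraries, at lower levels. Cdh5 and Emcn, on the same list, were at 0 in all 6 libraries. The part of endothelial RNA in the results was not tested.

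Large oocytes differed between P6 and P4 in 3130 genes, most of them by less than 2-fold. These were 25.3% of the 12368 genes tested, 785 higher in P6 large (6.35%) and 2345 lower (19.0%). Only 85 of the genes called higher (0.687% of genes tested) and 114 of those called lower (0.922%) had a log2 change of at least 1. The 2 groups did not overlap in 49.1% of all genes. Without P4 large replicate 2, 829 of 12439 genes were called higher (6.66%) and 2566 lower (20.6%). The excess of lower genes depended on the scale. The median log2 change over all genes was -0.10 as deposited and 0.04 after median-of-ratios rescaling, a shift of 0.14. After rescaling, 1737 genes were called higher (14.0%) and 1205 lower (9.74%), and edgeR on the recovered reads called 1143 higher (9.24%) and 1168 lower (9.44%). DESeq2 called 1332 higher (10.8%) and 1274 lower (10.3%). All 785 genes called higher and 1201 of the 2345 called lower were also called in the same direction after rescaling, so changes are read below against the scale. Because these are shares of a library, fewer cells of a type and less RNA per cell cannot be told apart.

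**Figure D1:**
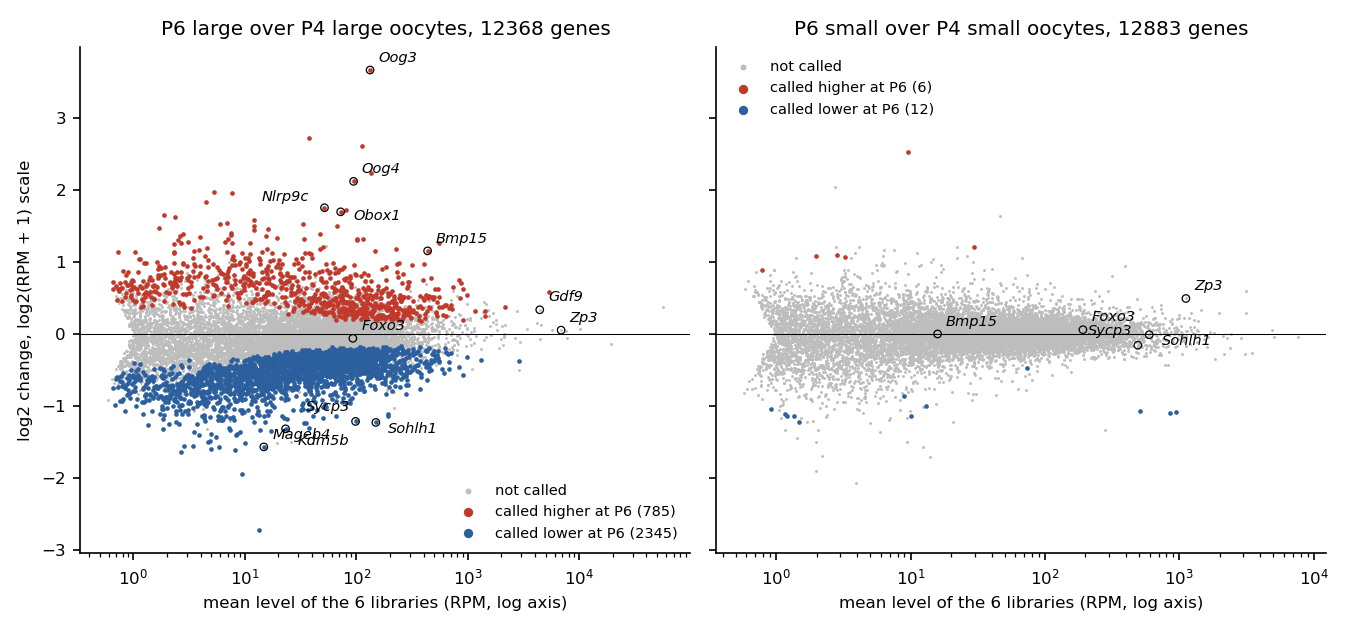
Log2 change of each gene from P4 to P6 on the log2(RPM + 1) scale against its mean level (RPM, log axis), in large oocytes (left, 12368 genes) and small oocytes (right, 12883 genes). Red and blue points are genes called higher and lower at P6 by limma; large oocytes had 785 and 2345 such genes, small oocytes 6 and 12.

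The steepest rises belonged to oocyte-specific gene families that lie in clusters. Oogenesins are PRAME-like leucine-rich repeat proteins of the oocyte. Oog3 was at 228, 187 and 303 RPM in P6 large, against 21.6, 50.4 and 4.49 RPM in P4 large libraries. The groups did not overlap, which the rule that named the gene required, although P4 large replicate 2 lay far above replicate 3. The log2 change was 3.67 ± 0.86 (SE, limma adjusted p = 0.0032). Oog2 was at 65.4, 48.1 and 77.4 RPM in P6 large, against 12.0, 19.9 and 2.30 RPM in P4 large libraries, a log2 change of 2.72. DESeq2 called neither, with adjusted p = 0.26 for Oog3 and 0.069 for Oog2, while edgeR called both. With a pseudocount of 0.1 the Oog3 call was lost (limma adjusted p = 0.082). Oog4 had a narrower spread, with 158, 134 and 165 RPM in P6 large and 34.4, 50.2 and 23.1 RPM in P4 large libraries, and rose by a log2 change of 2.12 ± 0.22 (limma adjusted p = 1e-06). Oog1 was the smallest of these changes, 10.3 RPM in P6 large and 7.21 RPM in P4 large oocytes, a log2 change of 0.50.

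Obox genes encode homeobox proteins found in oocytes. Obox1 was at 107, 107 and 117 RPM in P6 large, against 26.4, 42.8 and 32.8 RPM in P4 large libraries, a log2 change of 1.70 ± 0.14 (SE; limma adjusted p = 3.5e-08). Obox2 rose by a log2 change of 1.72 and Obox5 by 1.16. Every P6 large library was above every P4 large library for all 3 genes, which the rule that named Obox1 and Obox2 required of them. The list of oogenesins and Obox genes holds only some PRAME-like genes. Of its 9 tested genes, 8 were called higher and 0 lower, against 6.35% and 19.0% of all genes. Their median log2 change was 1.70, against -0.10 over all genes. By edgeR 6 of them were called higher, against 9.24% of all genes. The exception was Pramef12, at 510 RPM in P6 large and 434 RPM in P4 large oocytes, which was not called.

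Promoters of genes that rose together are shown for the oogenesins and Obox genes, beside those of Bmp15, which rose, and Sohlh1, which fell. Each is the RefSeq window from 250 bases before to 50 after the annotated start (GRCm38.p6), read 5′ to 3′ on the gene's strand. Capitals mark E-boxes, CANNTG, the motif bound by basic helix-loop-helix factors such as FIGLA and SOHLH1; the motif reads the same on both strands.
Oog2, chr4:144190467-144190766, plus strand: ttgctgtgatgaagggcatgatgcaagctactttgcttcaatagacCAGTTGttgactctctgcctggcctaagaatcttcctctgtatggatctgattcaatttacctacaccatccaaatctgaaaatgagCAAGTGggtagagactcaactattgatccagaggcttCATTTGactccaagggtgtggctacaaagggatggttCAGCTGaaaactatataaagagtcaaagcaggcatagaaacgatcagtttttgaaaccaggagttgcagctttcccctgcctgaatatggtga
Oog3, chr4:144162602-144162901, minus strand: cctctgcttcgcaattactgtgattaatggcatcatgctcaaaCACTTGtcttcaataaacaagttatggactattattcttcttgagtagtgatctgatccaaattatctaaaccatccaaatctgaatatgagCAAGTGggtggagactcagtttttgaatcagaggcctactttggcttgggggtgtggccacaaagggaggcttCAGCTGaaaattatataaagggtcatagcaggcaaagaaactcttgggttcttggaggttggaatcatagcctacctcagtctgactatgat
Oog4, chr4:143450275-143450574, minus strand: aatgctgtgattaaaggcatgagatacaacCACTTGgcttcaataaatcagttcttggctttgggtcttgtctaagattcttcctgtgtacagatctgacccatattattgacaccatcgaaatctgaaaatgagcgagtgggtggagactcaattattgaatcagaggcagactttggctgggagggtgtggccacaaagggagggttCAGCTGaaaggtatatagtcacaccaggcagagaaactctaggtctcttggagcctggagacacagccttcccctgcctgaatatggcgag
Obox1, chr7:15547007-15547306, plus strand: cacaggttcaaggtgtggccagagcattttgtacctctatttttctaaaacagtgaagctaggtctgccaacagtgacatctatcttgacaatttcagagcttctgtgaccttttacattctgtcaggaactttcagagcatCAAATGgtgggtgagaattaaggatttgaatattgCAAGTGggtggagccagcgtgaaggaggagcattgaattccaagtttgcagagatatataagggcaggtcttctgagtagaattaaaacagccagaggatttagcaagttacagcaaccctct
Obox2, chr7:15388601-15388900, plus strand: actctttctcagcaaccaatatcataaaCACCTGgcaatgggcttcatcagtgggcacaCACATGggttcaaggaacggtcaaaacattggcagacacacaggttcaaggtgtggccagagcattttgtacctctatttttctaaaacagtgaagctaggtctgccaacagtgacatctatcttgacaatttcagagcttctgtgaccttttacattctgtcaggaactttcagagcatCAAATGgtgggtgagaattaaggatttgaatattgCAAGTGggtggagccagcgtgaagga
Obox5, chr7:15750120-15750419, plus strand: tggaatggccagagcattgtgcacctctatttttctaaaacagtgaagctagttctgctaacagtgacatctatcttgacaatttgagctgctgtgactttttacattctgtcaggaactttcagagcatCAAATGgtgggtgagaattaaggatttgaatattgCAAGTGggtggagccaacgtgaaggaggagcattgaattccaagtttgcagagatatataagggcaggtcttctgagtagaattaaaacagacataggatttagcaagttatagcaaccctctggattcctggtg
Bmp15, chrX:6320675-6320974, minus strand: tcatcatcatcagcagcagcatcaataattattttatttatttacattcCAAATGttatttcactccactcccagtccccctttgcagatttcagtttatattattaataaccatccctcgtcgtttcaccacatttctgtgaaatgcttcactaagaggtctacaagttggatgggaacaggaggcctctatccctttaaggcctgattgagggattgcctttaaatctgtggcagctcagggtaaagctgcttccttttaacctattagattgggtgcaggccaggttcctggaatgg
Sohlh1, chr2:25847199-25847498, minus strand: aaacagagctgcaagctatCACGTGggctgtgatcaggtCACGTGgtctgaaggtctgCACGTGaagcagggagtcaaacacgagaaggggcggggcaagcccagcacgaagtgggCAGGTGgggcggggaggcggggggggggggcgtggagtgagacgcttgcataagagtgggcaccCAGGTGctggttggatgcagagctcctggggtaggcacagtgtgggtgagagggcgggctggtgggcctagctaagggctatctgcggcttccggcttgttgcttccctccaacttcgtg

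The Oog2 and Oog4 windows were identical in 76.7% of aligned columns, Oog3 and Oog4 in 73.3%, and Oog2 and Oog3 in 69.0%. Obox1 and Obox5 were identical in 88.8%, Obox1 and Obox2 in 51.1%, and Obox2 and Obox5 in 45.0%. Windows were aligned end to end, and the Obox2 window is offset from the others. Its last part, from cacaggttcaagg to the end, is letter for letter the start of the Obox1 window. Much of this stretch is also in the Obox5 window with a few letters changed. The low values for Obox2 therefore understate its likeness to Obox1 and Obox5. Between oogenesin and Obox windows the range was 47.5% to 55.5%. Windows were found for 56 of the 85 genes that rose by at least 1, 68 windows in all, and 82.4% of these held an E-box. The share was 64.6% of the 11932 windows of all genes tested and 75.9% of the 112 windows of the genes that fell by at least 1. With no limit on the size of the change, it was 67.5% of 745 windows of genes called higher and 64.7% of 2309 windows of genes called lower, near that of all genes. Windows of related genes with like sequences, such as Obox1 and Obox5, were counted separately. The windows of the genes that rose by at least 1 were also poorer in CpG, with a median ratio of observed to expected CpG of 0.40. It was 0.76 over all genes and 0.70 for the genes that fell by at least 1. Over all genes called higher the ratio was 0.68, and over all called lower 0.79. The homeobox motif TAATTG, searched on both strands, was in 7.35% of the windows of the rising genes and 5.04% of all windows. These are letter matches in windows of 300 bases and no test was made.

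The families sit close together in the genome. On chromosome 4, 9 genes were tested from the start of Pramef8 to the end of C87977 (143412155 to 144213017, GRCm38.p6), of which 8 rose and 1, Pramef8, fell (26.8 RPM in P6 large, 35.6 RPM in P4 large oocytes, log2 change -0.40). Besides the oogenesins, the rises were of PRAME-like genes, with log2 changes of 2.23 for Gm13023 (Pramel25 in RefSeq), 1.18 for Gm13084 (Pramel26), 1.02 for Gm13103 (Pramel27), 2.61 for C87977 (Pramel29) and 0.58 for Pramef17. On chromosome 7, the genes tested from Obox2 to Obox5 (15388851 to 15759274) were the 3 Obox genes, which all rose. On chromosome 9, the 12 genes from Fbxw21 to Fbxw26 (109139454 to 109746089) were all Fbxw genes, and 7 of them rose. These bounds were drawn after the values were seen. Members of these families are near-identical in part, so reads may have been split between copies in the authors' counting, and a value of one member is less certain than the family's direction.

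Fbxw genes of this cluster encode F-box proteins with WD repeats, substrate adaptors of ubiquitin ligases. Of 12 tested, 7 were called higher and 0 lower, against 6.35% and 19.0% of all genes, with a median log2 change of 0.61. Fbxw28 was at 252, 341 and 360 RPM in P6 large, against 138, 208 and 139 RPM in P4 large libraries, a log2 change of 0.98 ± 0.19 (SE; limma adjusted p = 0.00064). Fbxw19 was at 208, 211 and 239 RPM in P6 large, against 113, 139 and 101 RPM in P4 large libraries, a log2 change of 0.90. The Fbxw28 call was lost with a pseudocount of 0.1 (limma adjusted p = 0.065). In both genes the highest P4 large library was replicate 2, and it stayed below the lowest P6 large library.

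NLR genes of the oocyte encode leucine-rich repeat proteins stored in the cytoplasm. Of these, 4 of 9 rose and 0 fell, against 6.35% and 19.0% of all genes. Nlrp4a, with a log2 change of 0.78, passed only narrowly (limma adjusted p = 0.042). Its call was lost with a pseudocount of 0.1 (adjusted p = 0.23) and with no filter (adjusted p = 0.073). It was also lost when any 1 of the 6 libraries other than P4 large replicate 2 was left out. Nlrp9c was at 72.4, 68.1 and 101 RPM in P6 large, against 21.2, 27 and 20.6 RPM in P4 large libraries, a log2 change of 1.75 ± 0.14 (SE; limma adjusted p = 3.5e-08). Nlrp9b was at 403, 377 and 472 RPM in P6 large, against 206, 231 and 201 RPM in P4 large libraries, a log2 change of 0.96 that was not called by DESeq2 (adjusted p = 0.10) or with a pseudocount of 0.1 (limma adjusted p = 0.19). Nlrp9a rose by 0.73. Nlrp14, the most abundant of the list, was at 10300 RPM in P6 large and 8631 RPM in P4 large oocytes and was not called.

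Of 12 zona and egg surface genes 1 was called higher and 2 lower, and of 8 subcortical complex genes 2 were called higher and 0 lower, against 6.35% higher and 19.0% lower of all genes. Zp3, a structural zona pellucida protein, was at 6611, 7552 and 6791 RPM in P6 large, against 6654, 7090 and 6451 RPM in P4 large libraries, a log2 change of 0.05 ± 0.18 (SE; limma adjusted p = 0.86). Zp1 and Zp2 had log2 changes of 0.07 and 0.07, and Nlrp5 and Padi6, core parts of the subcortical maternal complex, had -0.06 and -0.14. None of these was called as deposited, after rescaling or by edgeR. Folr4, known as Juno, the egg's receptor for sperm IZUMO1, was at 96.6, 111 and 124 RPM in P6 large, against 60.2, 71.0 and 57.8 RPM in P4 large libraries, a log2 change of 0.80 (limma adjusted p = 0.0079). Zbed3 and Nlrp2 were the 2 subcortical complex genes that rose. With a pseudocount of 0.1 the calls of Folr4 (limma adjusted p = 0.089) and Nlrp2 (adjusted p = 0.19) were lost. Zbed3 stood at 6306, 6498 and 6386 RPM in P6 large, against 3878, 5074 and 3926 RPM in P4 large libraries, a log2 change of 0.59; its call was lost without P4 large replicate 1 (0.52, limma adjusted p = 0.087) without P4 large replicate 3 (0.53, adjusted p = 0.077) and with a pseudocount of 0.1 (0.59, adjusted p = 0.099).

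Secreted growth factors were split between called and not called. Bmp15 rose, with 549, 604 and 638 RPM in P6 large, against 238, 358 and 224 RPM in P4 large libraries, a log2 change of 1.15 ± 0.21 (SE; limma adjusted p = 0.00039). Its partner Gdf9 was at 4698, 5133 and 4925 RPM in P6 large, against 3702, 4192 and 3812 RPM in P4 large libraries. These values do not overlap, but the log2 change of 0.34 ± 0.18 did not pass the test as deposited (limma adjusted p = 0.18). The change also missed with edgeR (adjusted p = 0.069) and DESeq2 (adjusted p = 0.14). It passed by limma after rescaling (adjusted p = 0.049), in a fit of the 6 libraries alone (0.0044) and with the replicate block (0.0032). The outcome for Gdf9 thus depended on the fit. Oosp3 and Oosp1, small secreted proteins of the oocyte, rose by log2 changes of 1.21 and 0.72. Over the list 4 of 9 were called higher and 0 lower, against 6.35% and 19.0% of all genes, with a median log2 change of 0.36.

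**Figure D2:**
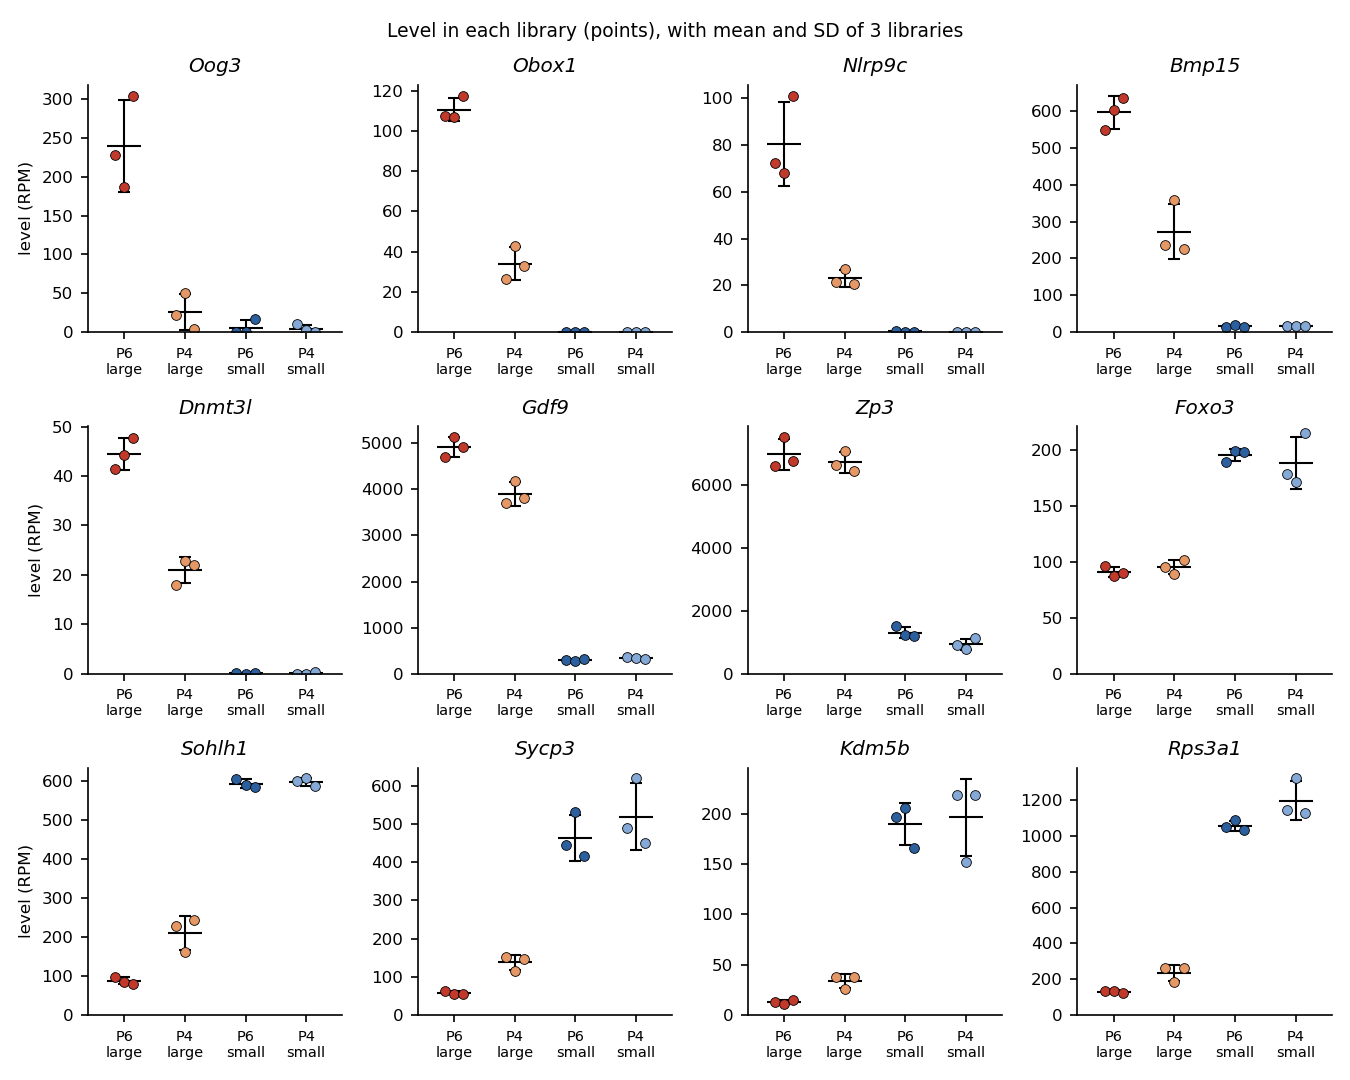
Level in each library (points, RPM, axes from 0) with the mean and SD of 3 libraries, for 12 genes in P6 large, P4 large, P6 small and P4 small oocytes. Oog3, Obox1, Nlrp9c, Bmp15 and Dnmt3l were highest in P6 large oocytes, Sohlh1, Sycp3, Kdm5b and Rps3a1 were lowest there, and Gdf9, Zp3 and Foxo3 were not called between P6 large and P4 large.

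Other large rises lay outside these families. Upp1, the enzyme uridine phosphorylase, was at 51.7, 44.2 and 52.9 RPM in P6 large, against 14.8, 19.4 and 15.8 RPM in P4 large libraries, a log2 change of 1.52 by limma; it was not called by DESeq2 (adjusted p = 0.21) or with a pseudocount of 0.1 (limma adjusted p = 0.096). Spry4, an inhibitor of receptor tyrosine kinase signalling, was at 19.9, 21.3 and 32.1 RPM in P6 large, against 8.57, 8.76 and 7.03 RPM in P4 large libraries, a log2 change of 1.45. Adcy6, an adenylyl cyclase, was at 31.0, 24.3 and 28.9 RPM in P6 large, against 7.25, 14.3 and 11.1 RPM in P4 large libraries, a log2 change of 1.33. Jade2, a PHD-finger protein of a histone acetyltransferase complex, rose by 1.31 and the receptor Gpr35 by 1.31 (not called with a pseudocount of 0.1, limma adjusted p = 0.083). Prr18 had a log2 change of 1.36, which was no longer called without P6 large replicate 1 (1.11, adjusted p = 0.051) or with a pseudocount of 0.1 (1.45, adjusted p = 0.057). In all 6 genes no P4 large library reached the lowest P6 large library, which the rule that named them required.

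Of 14 genes that act on DNA methylation 2 were called higher and 1 lower, against 6.35% and 19.0% of all genes. Dnmt3l, the cofactor of de novo DNA methylation in oocytes, was at 41.4, 44.2 and 47.8 RPM in P6 large, against 18.0, 22.9 and 22.1 RPM in P4 large libraries, a log2 change of 1.05 ± 0.13 (SE; limma adjusted p = 4.6e-06). The enzyme it assists, Dnmt3a, was at 251, 227 and 253 RPM in P6 large, against 243, 245 and 237 RPM in P4 large libraries, and was not called. Dnmt1 had a log2 change of 0.13 that was not called as deposited and was called after rescaling (0.27). Tet2, which oxidises 5-methylcytosine, was lower, with a log2 change of -0.81.

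Among 28 histone methylation genes 4 rose and 5 fell, against 6.35% and 19.0% of all genes. Kdm5b, an H3K4 demethylase, was at 12.8, 10.6 and 14.8 RPM in P6 large, against 37.4, 25.5 and 37.8 RPM in P4 large libraries, a log2 change of -1.32 ± 0.15 (SE; limma adjusted p = 2e-06). Kmt2a, an H3K4 methyltransferase, was at 4.09, 3.4 and 2.90 RPM in P6 large, against 14.3, 9.18 and 15 RPM in P4 large libraries, a log2 change of -1.61. Among histone variants, the linker histone H1f0 rose by 0.86 and the variant H2afy (macroH2A1) fell by 0.74 on the log2 scale. H1foo, the oocyte linker histone, was at 1523, 1747 and 1537 RPM in P6 large, against 1073, 1355 and 1132 RPM in P4 large libraries; its log2 change of 0.44 was not called as deposited (limma adjusted p = 0.082) and was called after rescaling and by edgeR.

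Of 19 transcription factors of follicle formation and oocytes 2 were called higher and 4 lower, against 6.35% and 19.0% of all genes. After rescaling 4 were called higher and 4 lower, against 14.0% and 9.74% of all genes. Sohlh1 was at 97.5, 86.0 and 80.7 RPM in P6 large, against 228, 161 and 244 RPM in P4 large libraries, a log2 change of -1.23 ± 0.23 (SE; limma adjusted p = 0.00049). Sohlh2 was at 9.48, 12.3 and 11.7 RPM in P6 large, against 21.2, 19.8 and 26.1 RPM in P4 large libraries, a log2 change of -0.94. Figla was at 109, 107 and 106 RPM in P6 large, against 211, 145 and 185 RPM in P4 large libraries, a log2 change of -0.72 (limma adjusted p = 0.013). The Figla call was lost without P4 large replicate 1 (log2 change -0.60, adjusted p = 0.088) and without P4 large replicate 3 (-0.70, adjusted p = 0.051). Nobox and Lhx8 had log2 changes of -0.11 and -0.10 and were not called. Gata4 was 1 of the 2 that rose, at 13.8, 16.6 and 13.7 RPM in P6 large and 6.45, 9.06 and 5.30 RPM in P4 large libraries, a log2 change of 1.01; it is also on the list of granulosa cell markers, 2 of which were called higher and whose summed level was higher in P6 large libraries.

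Of 31 genes of meiotic prophase 0 were called higher and 12 lower, against 6.35% and 19.0% of all genes, with a median log2 change of -0.36. Sycp3, part of the chromosome axis, was at 63.9, 56.0 and 55.6 RPM in P6 large, against 152, 115 and 147 RPM in P4 large libraries, a log2 change of -1.22 ± 0.15 (SE; limma adjusted p = 6.8e-06). Tex11, a crossover factor on the X chromosome, had a log2 change of -1.39 and Syce1, part of the central element of the synaptonemal complex, one of -1.11. After rescaling 1 of the list was called higher and 10 lower, against 14.0% and 9.74% of all genes. By edgeR 1 was called higher and 7 lower, against 9.24% and 9.44% of all genes. Of 33 genes that hold the later meiotic arrest or drive its end, 3 were called higher and 1 lower, and the difference between the lists was not tested. Mos, the kinase of the second meiotic arrest, was at 361, 334 and 354 RPM in P6 large, against 221, 246 and 208 RPM in P4 large libraries, a log2 change of 0.64 (limma adjusted p = 0.0012) that was not called with a pseudocount of 0.1 (adjusted p = 0.062). The spindle checkpoint kinase Bub1b rose by 0.60.

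The other large falls were of genes of diverse function. Mageb4, an X-linked member of the MAGE family, was at 6.81, 6.18 and 6.65 RPM in P6 large, against 25.1, 12.2 and 31.7 RPM in P4 large libraries, a log2 change of -1.57. Ctsl, the lysosomal protease cathepsin L, was at 22.5, 18.3 and 20.6 RPM in P6 large, against 55.5, 42.4 and 51.2 RPM in P4 large libraries, a log2 change of -1.23. Marcksl1, a regulator of the actin cortex, fell by 1.24 on the log2 scale. Further falls were those of Atxn10 (-1.35), Bahcc1 (-1.23), Ap3b2 (-1.18) and the paraoxonase Pon3 (-1.17). All of these were called under every alternative tried. Arid5b, with a log2 change of -1.16, was not called after rescaling (adjusted p = 0.066), by edgeR (0.080) or without any one of the 6 libraries (0.063 to 0.13).

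Of 33 genes of the signalling pathway of primordial follicle activation 1 was called higher and 10 lower, against 6.35% and 19.0% of all genes. In this pathway, KIT and the insulin receptors activate PI3K and AKT, which move FOXO3 out of the nucleus. Foxo3 itself was at 96.1, 87.1 and 89.4 RPM in P6 large, against 95.0, 88.7 and 101 RPM in P4 large libraries. The groups overlapped, and the log2 change was -0.06 ± 0.11 (SE; limma adjusted p = 0.73). Kit was at 732, 711 and 715 RPM in P6 large, against 906, 824 and 927 RPM in P4 large libraries, a log2 change of -0.30. It was not called with all libraries (limma adjusted p = 0.062), after rescaling (0.33), by edgeR (0.27) or by DESeq2 (0.26). By limma it was called without P4 large replicate 2 (-0.35, adjusted p = 0.049). The Kit call also passed in a fit of the 6 libraries alone (limma adjusted p = 0.00355) and with the replicate block (0.00388). The insulin receptor Insr was at 4.56, 5.25 and 6.27 RPM in P6 large, against 17.3, 8.22 and 12.7 RPM in P4 large libraries, a log2 change of -1.06. Eif4ebp1, the translation brake that mTOR inactivates, was at 22.2, 19.8 and 18.7 RPM in P6 large, against 48.9, 33.3 and 48.9 RPM in P4 large libraries, a log2 change of -1.06. After rescaling 4 of the list were called higher and 6 lower, against 14.0% and 9.74% of all genes. By edgeR 2 were called higher and 8 lower, against 9.24% and 9.44% of all genes.

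Genes known in other cells as FOXO targets were lower or not called, 0 higher and 10 lower of 25, with a median log2 change of -0.33. After rescaling 1 was higher and 5 lower. For this list and the next 2, the shares of all genes were 6.35% higher and 19.0% lower as deposited. After rescaling they were 14.0% higher and 9.74% lower. Cat, the peroxide-degrading enzyme catalase, was at 3.35, 4.74 and 4.40 RPM in P6 large, against 10.7, 10.7 and 10.2 RPM in P4 large libraries, a log2 change of -1.17 ± 0.20 (SE; limma adjusted p = 0.00016). Over antioxidant enzymes as a list, 0 of 22 were higher and 10 lower, and after rescaling 6 lower; the peroxiredoxin Prdx4 had a log2 change of -1.23 and glutathione reductase Gsr one of -1.06. Genes induced through hypoxia-inducible factors in other cells were mixed, 2 of 33 higher and 9 lower, and 7 higher and 6 lower after rescaling. Pfkp, a phosphofructokinase that is both a glycolytic enzyme and such a target, was at 6.91, 5.82 and 9.60 RPM in P6 large, against 1.55, 2.16 and 0.576 RPM in P4 large libraries, a log2 change of 1.83. Pgk1, the glycolytic phosphoglycerate kinase, fell by 0.52 on the log2 scale.

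The broadest shift was in ribosomal and mitochondrial proteins. Of 82 genes for proteins of the cytosolic ribosome, 0 were called higher and 75 lower, with a median log2 change of -0.50. Rps3a1 was at 137, 133 and 121 RPM in P6 large, against 261, 184 and 265 RPM in P4 large libraries, a log2 change of -0.84 ± 0.11 (SE; limma adjusted p = 1.6e-05). The direction held on both other scales, with 0 higher and 47 lower after rescaling and 0 higher and 50 lower by edgeR. Of 77 nuclear-encoded genes of the respiratory chain and ATP synthase, 0 were higher and 53 lower, with 19 lower after rescaling and 20 by edgeR. Ndufs6, a subunit of complex I, was at 38.4, 42.9 and 41.2 RPM in P6 large, against 73.9, 56.9 and 74.9 RPM in P4 large libraries, a log2 change of -0.72. In the citrate cycle list 1 of 27 was higher and 9 lower, but 1 higher and 3 lower both after rescaling and by edgeR. Of all genes 19.0% were called lower as deposited, 9.74% after rescaling and 9.44% by edgeR. Idh3g of this list had a log2 change of -0.91. For each of these 3 genes P4 large replicate 2 was the P4 library nearest to P6, and without it 79 ribosomal and 59 respiratory chain genes were called lower.

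Of all genes 6.35% were called higher and 19.0% lower as deposited, and 14.0% higher and 9.74% lower after rescaling. Cholesterol synthesis had 0 of 22 higher and 6 lower, and 2 lower after rescaling. Autophagy and lysosome genes were divided, 4 of 30 higher and 13 lower, and 4 and 9 after rescaling. Genes of the piRNA pathway, which silences transposons, had 1 of 24 higher and 7 lower, with Mov10l1 at 46.1, 46.9 and 56.6 RPM in P6 large and 103, 78.0 and 112 RPM in P4 large libraries. Genes that store and translate maternal mRNA had 5 of 26 higher and 3 lower, but 9 higher and 0 lower after rescaling. Epcam, an epithelial adhesion protein also found on germ cells, was at 4.56, 4.84 and 4.17 RPM in P6 large, against 20, 10.5 and 15.4 RPM in P4 large libraries, a log2 change of -1.52.

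**Figure D3:**
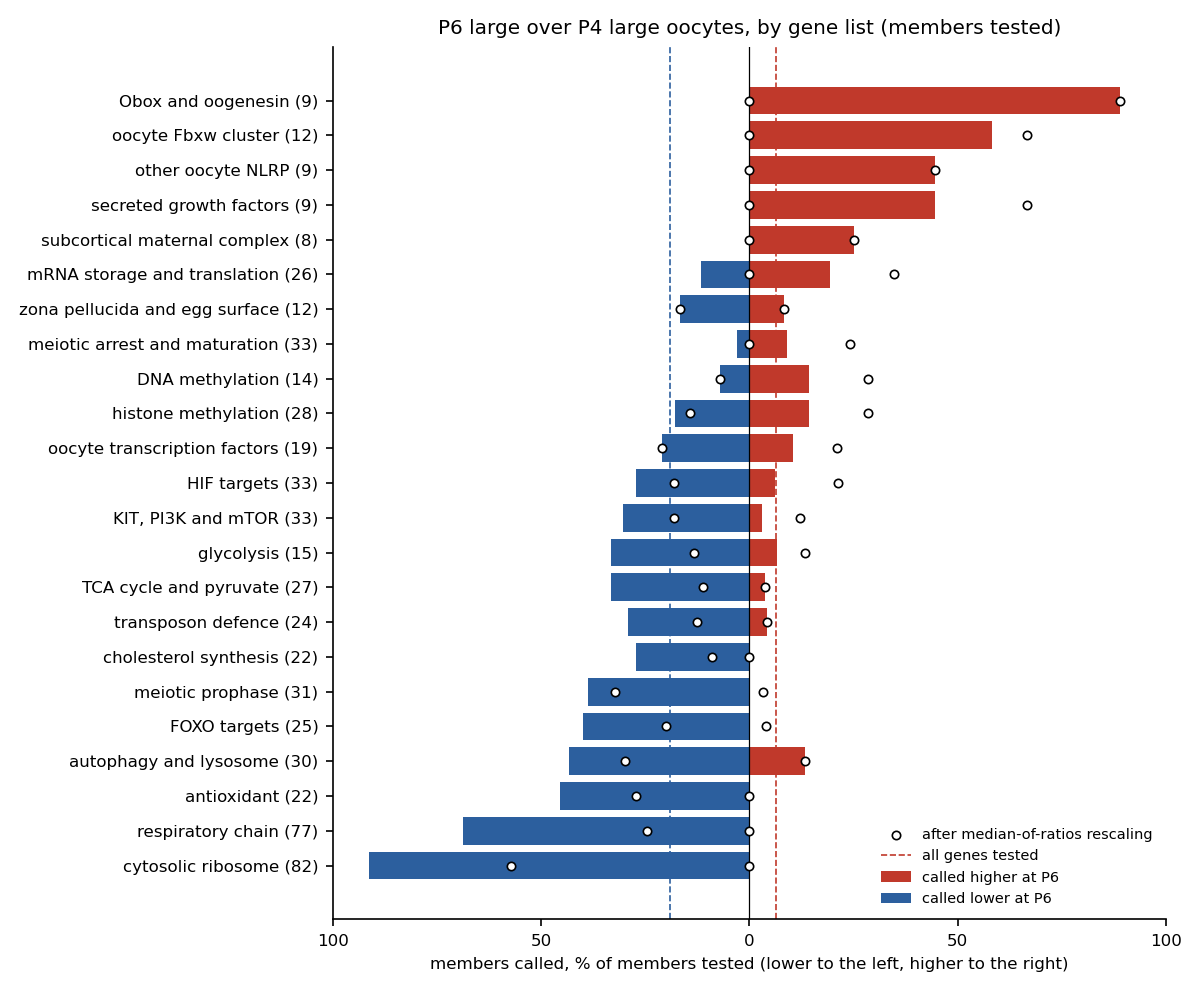
Share of the tested members of each gene list that were called higher (red, to the right) or lower (blue, to the left) in P6 large over P4 large oocytes; open circles give the same shares after median-of-ratios rescaling, and dashed lines all genes as deposited (6.35% higher, 19.0% lower). Oocyte-specific families lie at the top with calls to the right alone, and the cytosolic ribosome at the bottom with 75 of 82 members called lower and 47 after rescaling.

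Small oocytes gave few calls over the same 2 days. Of 12883 genes tested between P6 small and P4 small oocytes, 18 were called by limma (0.14%), 6 higher (0.0466%) and 12 lower (0.0931%), while 1371 had an unadjusted p under 0.05; edgeR called 5 and DESeq2 98. Of the genes called in large oocytes, 0 of those higher were called higher in small oocytes and 2 of those lower were called lower. Sohlh1 was at 607, 591 and 585 RPM in P6 small, against 601, 608 and 588 RPM in P4 small libraries. Bmp15 was at 15, 18.1 and 14.6 RPM in P6 small, against 16.1, 15.2 and 16.3 RPM in P4 small libraries. Obox1 was at 0 to 0.0654 RPM in P6 small and at 0 in all P4 small libraries.

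The difference between the 2 sizes in their change with age was tested as an interaction. Of 13630 genes, 1431 were called (10.5%), 443 with a more positive change in large oocytes (3.25%) and 988 with a more negative one (7.25%). In the same direction were 68 of the 85 rises and 88 of the 114 falls of at least 1 on the log2 scale. These sets were chosen on the change in large oocytes, which is itself part of the interaction. Their shared direction was therefore largely fixed by the choice and is no separate finding. Bmp15 changed by 1.16 more in large than in small oocytes on the log2 scale (limma adjusted p = 0.016), and Sohlh1 by -1.22 (adjusted p = 0.019). For Figla the interaction was -0.82 and was not called (limma adjusted p = 0.074).

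The direction of change in large oocytes was also that of the distance from small oocytes. P6 small oocytes were below both large groups in 94.1% of the 85 rises, against 33.4% of all genes tested, and above both in 92.1% of the 114 falls, against 60.5% of all genes. A set of 50 genes with at least 50 RPM in P6 small oocytes and at least 16 times their P6 large level summed, in each library, to 3.12%, 3.05% and 3.10% of its P6 small mean in P6 large, against 8.02%, 5.32% and 8.34% in P4 large libraries. The set was chosen partly on P6 large values, so that group's low sum is no finding. P4 large replicate 2 lay between the other P4 large libraries and P6 large. Whether the P4 large libraries held some smaller oocytes was not tested.

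The growth of oocytes in culture offered libraries that share no sample with the large oocytes. Between D20 and D13 of culture 7586 of 13122 genes were called, 3403 higher (25.9%) and 4183 lower (31.9%). Of the 780 genes that rose in large oocytes and were tested in culture, 755 were also called higher at D20 (96.8%) and 1 lower, against 25.9% and 31.8% of all 12271 genes tested in both. Of the 2339 genes that fell, 1935 were called lower at D20 (82.7%) and 8 higher. Obox1 was 5.72 and Nlrp9c 4.56 higher at D20 than at D13 on the log2 scale, against 1.70 and 1.75 between P6 large and P4 large. Sohlh1 changed by -3.09 in culture. Foxo3 was called in neither, with a log2 change of 0.38 in culture. The intervals in culture and in the ovary differ in length, so the sizes are given side by side without a test.

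**Figure D4:**
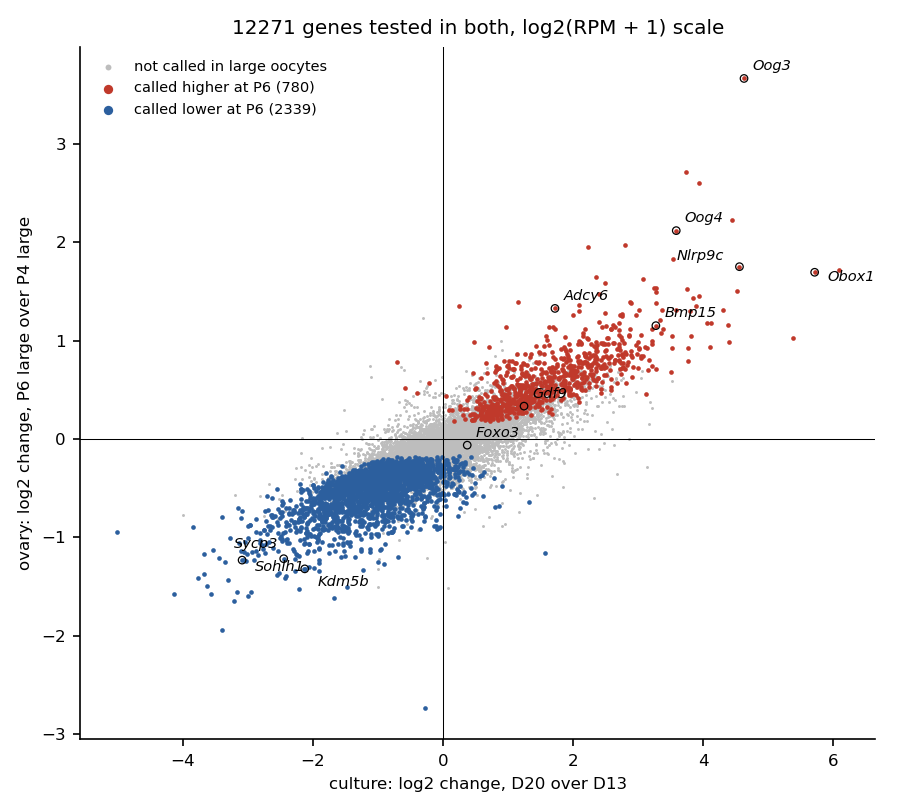
Log2 change in the ovary (P6 large over P4 large, vertical) against log2 change in culture (D20 over D13, horizontal) for the 12271 genes tested in both, on the log2(RPM + 1) scale. Of the 780 red genes, called higher in P6 large, 755 were called higher in culture too, and of the 2339 blue genes, called lower, 1935 were called lower.

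By chromosome, the X stood out among the genes called lower, a pattern chosen after its values were seen. Of 402 X-linked genes tested 133 were called lower in P6 large (33.1%) and 21 higher (5.22%), against 19.0% lower and 6.35% higher of all genes tested; single autosomes ranged from 15.4% lower on chromosome 4 to 21.6% on chromosome 16. The median log2 change of X-linked genes was -0.25 and that of autosomal genes -0.10, a difference of -0.15 that lay between -0.17 and -0.05 over 15 alternatives. X-linked genes took 2.32%, 2.29% and 2.34% of reads in P6 large, against 2.60%, 2.49% and 2.56% in P4 large libraries. The groups did not overlap, and the exact two-sided permutation test gave p = 0.1, the smallest that 3 libraries against 3 allow. In small oocytes the share was 3.49% ± 0.07 at P6 and 3.51% ± 0.03 at P4 (SD, n = 3 each; exact permutation p = 0.8). Mageb4, Tex11 and Prdx4, named above for their falls, are X-linked, while Bmp15, which rose, is X-linked too.

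**Figure D5:**
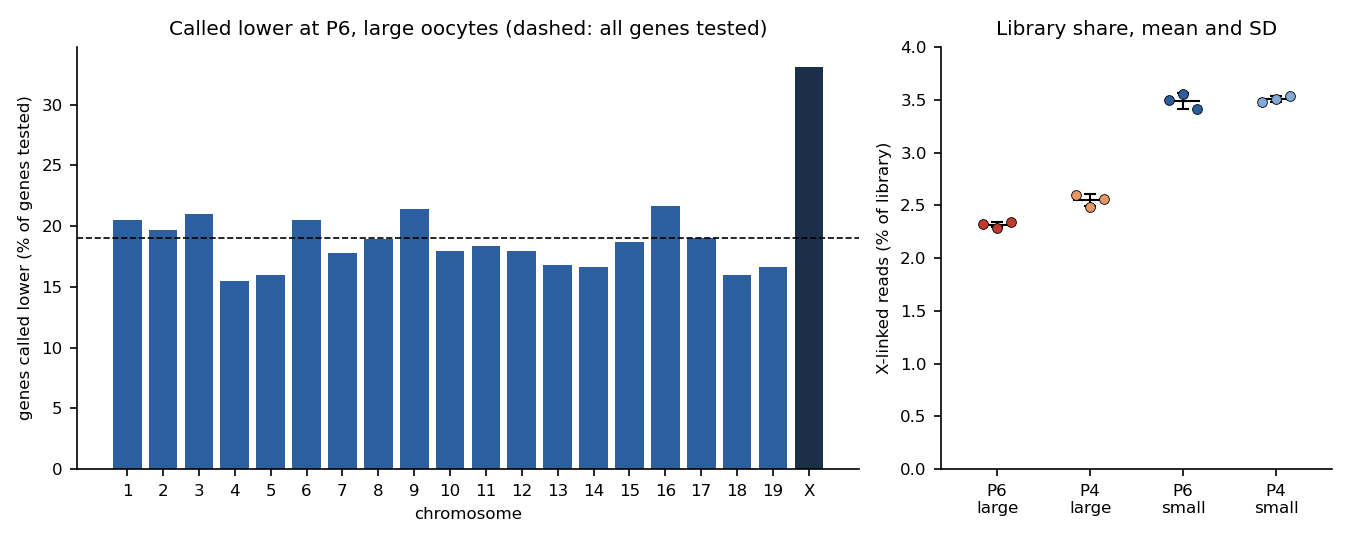
Left, genes called lower in P6 large over P4 large oocytes as a share of the genes tested on each chromosome, with the share over all genes dashed (19.0%); the X chromosome was at 33.1%. Right, share of each library's reads from X-linked genes (points) with the mean and SD of 3 libraries; P6 large libraries were at 2.29% to 2.34% and P4 large libraries at 2.49% to 2.60%.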

How the data were processed

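Poly(A) RNA of isolated oocytes was made into directional libraries with 12 cycles of PCR, per the labels' protocols. The submitters' processing notes name TopHat2, Bowtie2 2.0.13, featureCounts 1.5.1, R 3.4.4 and the build mm10, without roles, settings or annotation. The deposited values are RPM, reads per 1000000 reads of a library by the authors, for 24062 genes in 66 libraries, not divided by transcript length, so levels are compared within a gene only. Within a library 1588091 of 1588092 values were whole multiples of 1 step to within 0.01 of a read, so reads could be recovered from the deposited RPM for count tests. With 16657836 to 21358449 reads a library, a count of 0 allows up to 3 reads, 0.140 to 0.180 RPM; this covers counting error only.

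Genes with a mean of at least 1 RPM in a compared group were tested two-sided on the log2(RPM + 1) scale by limma (3.58.1, with a mean trend) over all 27 in vivo libraries (18 residual degrees of freedom), with Benjamini-Hochberg adjustment at 0.05. Fold changes on this scale understate those of low genes. The difference between large and small oocytes was a contrast of the same fit, and D20 against D13 came from a fit of the 27 course libraries. The libraries share replicate numbers, but same-numbered P6 and P4 large libraries did not deviate together (correlations 0.094, -0.0098 and 0.074), so no block was used. Replicates differed by more than sampling noise (chi-square of 5.21 to 13.9 per gene) and were all kept. On simulated counts, limma called 68.7% of genes changed 1.5-fold, 94.0% of those changed 2-fold and 98.5% of those changed 4-fold in the comparison of P6 large with P4 large. The changed genes were drawn from those with at least 5 RPM in P4 large oocytes, so the rates do not cover lower genes. The simulation held no library that lay between the groups and no broad shift of the scale, unlike the data.

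The members and lists were chosen with earlier results of these data known. Genes named are the 12 largest rises and falls among called genes with groups that do not overlap and a mean of at least 20 RPM (unnamed models passed over), up to 3 called members of each list (the 2 most abundant where none was called) and a fixed panel of 24 genes. Others are named as chosen after their values were seen: Oog1, Obox5, Pramef12, Pramef8, Nlrp9a, Nlrp14, Gm13023, Gm13084, Gm13103, C87977, Pramef17, Nr5a2, Cyp19a1, Ptgis, Krt8, Kitl, Foxl2, Amh, Krt19, Tek, Tie1, Egfl7, Flt1, Vwf, Cdh5 and Emcn. A few genes that the rule names are not reported here. Promoters and positions are RefSeq's (GRCm38.p6). Tests were run in R 4.3.3. Alternatives were other pseudocounts (0.1, 5), filters (none, 5 RPM), median-of-ratios rescaling, edgeR 4.0.16 (quasi-likelihood, TMM), DESeq2 1.42.0, a fit of the 6 libraries alone, a replicate block, and leaving out each library.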

Additional observations from a re-analysis of the deposited data

Results flagged for a closer look

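For 63 of the genes chosen by the naming rule and reported here, the change with age differed between large and small oocytes by the interaction test of limma (adjusted p under 0.05 over 13630 genes, 3 libraries per group). Values are the log2 change of large oocytes minus that of small oocytes. Many of these genes were chosen for their change in large oocytes, which is itself part of this difference.

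The difference was positive for 23 genes. In oocyte-specific families it was 4.06 for Oog3, 3.20 for Oog2, 2.29 for Oog4, 1.69 for Obox2, 1.64 for Obox1, 1.5 for Nlrp9c, 1.13 for Nlrp9b, 1.22 for Fbxw19 and 0.88 for Fbxw28. Among secreted and signalling genes it was 1.16 for Bmp15, 0.98 for Oosp3, 1.65 for Spry4, 1.22 for Adcy6, 1.54 for Gpr35, 0.71 for Mos and 0.70 for Bub1b. The remaining values were 2.09 for Pfkp, 1.56 for Upp1, 1.56 for Jade2, 1.10 for Dnmt3l, 0.37 for Trim28, 1.66 for Gata4 and 1.34 for Pecam1.

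The difference was negative for 40 genes. It was -1.80 for Mageb4, -1.20 for Atxn10, -1.24 for Marcksl1, -0.89 for Ctsl, -1.27 for Bahcc1, -1.46 for Ap3b2 and -1.49 for Pon3. In meiotic and follicle-formation genes it was -1.06 for Sycp3, -1.29 for Tex11, -1.14 for Syce1, -1.22 for Sohlh1 and -0.89 for Sohlh2, and for chromatin genes -1.28 for Kdm5b, -1.76 for Kmt2a, -1.0 for Tet2 and -0.75 for H2afy. Surface, signalling and transcription factor genes gave -1.74 for Epcam, -0.88 for Cd81, -0.65 for Gjc1, -1.40 for Insr, -0.99 for Igf1r, -1.24 for Eif4ebp1, -1.48 for Jun, -1.07 for Fos and -0.90 for Bhlhe41. Ribosomal, mitochondrial and metabolic genes gave -0.67 for Rps3a1, -0.72 for Rpl36a, -0.75 for Ndufs6, -0.73 for Atp5d, -0.83 for Idh3g, -0.57 for Idh3b, -0.53 for Suclg1, -0.50 for Pgk1, -0.82 for Pmvk and -0.51 for Fdps. Genes of redox balance, autophagy and the piRNA pathway gave -1.17 for Cat, -1.11 for Gsr, -0.83 for Gabarap, -1.03 for Gabarapl1 and -0.74 for Mov10l1.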

How the results depend on the processing

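Against 3130 genes called in P6 large over P4 large oocytes (785 higher, 2345 lower, 199 with a log2 change of at least 1), leaving out 1 library gave 1662 to 3395 calls, 396 to 829 higher, 1266 to 2566 lower and 142 to 362 with a log2 change of at least 1. The count was lowest without P4 large replicate 1 (1662) and without P4 large replicate 3 (1862), and highest without P4 large replicate 2 (3395, of which 362 had a log2 change of at least 1). Genes called higher numbered 396 without P4 large replicate 1, 465 without P4 large replicate 3 and 465 without P6 large replicate 3. Rescaling called 1737 higher and 1205 lower, DESeq2 1332 and 1274, and edgeR 1168 lower. A fit of the 6 libraries alone called 1368 higher and 2937 lower, 4305 in all. A pseudocount of 0.1 called 485 higher. With a log2 change of at least 1 there were 415 at a pseudocount of 0.1, 50 at 5, 358 by edgeR and 374 by DESeq2. With the replicate block, 1398 were called higher (4410 in all), although the replicate numbers do not pair these libraries. No gene chosen by the naming rule changed direction with its call under any alternative run. This was not checked for the gene lists or for genes named after their values were seen. The balance of all calls did change, from 785 higher and 2345 lower as deposited to 1737 higher and 1205 lower after rescaling.

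The interaction of size and age gave 1431 calls, 605 to 2019 when 1 library was left out (605 without P4 large replicate 1, 723 without P4 large replicate 3, 897 without P6 large replicate 3, 911 without P6 small replicate 1 and 950 without P6 small replicate 2), 2519 from the 12 compared libraries alone and 2305 with the replicate block. P6 small over P4 small gave 18 calls, 3 at a pseudocount of 0.1, 28 at 5, 1 with a filter at 5 RPM, 5 by edgeR, 98 by DESeq2, 10 with the replicate block and 0 to 26 when 1 library was left out (0 without P4 small replicate 2 and without P6 small replicate 1). The cause of these shifts was not tested. D20 over D13 stayed within 6464 to 8825 of its 7586 calls. These alternatives for small oocytes and culture, and some for the interaction, were chosen after seeing the data.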

Other observations

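Over all genes 6.35% were called higher and 19.0% lower in P6 large over P4 large oocytes, and 14.0% and 9.74% after rescaling. Of further lists, ribosome assembly had 2 of 43 genes higher and 6 lower, and 10 higher and 2 lower after rescaling. The secretory pathway had 0 of 50 higher and 11 lower, proteasome subunits 0 of 33 and 4, solute transporters 1 of 20 and 2, spindle and centrosome genes 2 of 25 and 1, replication and mitosis genes 0 of 31 and 2, p53 targets 1 of 17 and 6, stress response genes 1 of 22 and 5, germ cell and pluripotency factors 3 of 15 and 2, gap junction and adhesion genes 0 of 16 and 3, histone variants 4 of 20 and 2, and glycolytic enzymes 1 of 15 and 5. Immediate early and heat shock genes, read as signs of handling, had 0 of 17 higher and 3 lower (1 and 3 after rescaling), and summed to 4062 to 4191 RPM in P6 large and 4146 to 4362 RPM in P4 large libraries. Jun was at 1.20, 1.80 and 0.843 RPM in P6 large, against 5.52, 5.16 and 6.16 RPM in P4 large libraries, a log2 change of -1.55 (limma adjusted p = 0.00025) that edgeR and DESeq2 also called. Egr2 had a log2 change of -0.73 (limma adjusted p = 0.041), and edgeR did not call it (adjusted p = 0.060). Fos was at 3.56, 2.93 and 2.06 RPM in P6 large, against 5.18, 5.10 and 6.51 RPM in P4 large libraries, and its call was lost without P4 large replicate 3 and without P6 large replicate 3 (limma adjusted p = 0.089 and 0.10) and by edgeR (adjusted p = 0.077).

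Manba, the lysosomal beta-mannosidase, had the largest fall of the 12368 genes tested, a log2 change of -2.73 ± 0.88 (SE; limma adjusted p = 0.025), but its groups overlapped. It was at 0.210, 0.360 and 18.3 RPM in P6 large, against 16.6, 23.3 and 20.9 RPM in P4 large libraries. It was at 1.57, 1.77 and 15.2 RPM in P6 small, against 2.75, 16.1 and 19.3 RPM in P4 small libraries. P6 large replicate 3 and P6 small replicate 3 lay far above the others of their groups, and P4 small replicate 1 far below. Manba was singled out after its values were seen, and no cause was tested.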
